A study of Rattus norvegicus with 4 samples.

Results

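The synaptic vesicle release machinery was taken as the genes of the synaptotagmin, synapsin, syntaxin, syntaxin-binding, VAMP, SNAP, complexin, Rab3, SV2, RIM and Munc13 families, together with Syp, Synpr, Bsn, Pclo, Nsf, Napa and Napb. They were chosen by symbol alone, and 77 of the 13984 rows with an NCBI gene ID carried such a symbol. The families are defined by sequence, so they also hold genes of general membrane traffic. By their textbook roles 52 genes act at or near the synapse and 25 serve other membranes of the cell. The series measured RNA in the hippocampus of Wistar rats on postnatal day 1. Their dams had received bisphenol A (BPA, a building block of polycarbonate plastics with estrogenic activity) at 5000 µg per kg of body weight or vehicle every day from gestational day 1 until delivery, and the records give the dams' age as 10 weeks. There were 4 groups, vehicle (control) and BPA-exposed pups of either sex, and each was a single library made from 3 pooled hippocampi. No group therefore had a replicate library, and the spread between pups or litters was not measured. Where 4 values are listed they stand for control males, BPA males, control females and BPA females, in this order.

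A synaptic vesicle is held near the release site by synapsins and by the scaffold of the active zone, the patch of presynaptic membrane where release takes place. It fuses when the vesicle SNARE synaptobrevin (Vamp2) zippers with a syntaxin and SNAP-25 of the plasma membrane. Munc13 proteins prepare that complex, complexins clamp and assist it, and synaptotagmins trigger it on calcium entry. Afterwards the ATPase NSF and its adaptors alpha- and beta-SNAP (Napa, Napb) pull the SNAREs apart for another round. In the rodent hippocampus most synapses form after birth, and many of its neurons are still extending axons in the first days.

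The RNA levels are given in FPKM. This unit divides the fragments of a gene by the length of its model and by the fragments mapped in the library. Levels of different genes can then be set side by side, but the comparison depends on the length of each model. The low values lay on steps of whole fragments, which put the depth at about 8600000 to 8780000 fragments per library. The summed level of 8 neuronal markers was 2896, 2976, 2741 and 3123 FPKM. The summed level of 8 listed markers of hippocampal excitatory neurons was 406, 394, 373 and 407 FPKM. The tissue label therefore matched its markers in every library, with no marker of either list at the lowest value. Markers of neighbouring tissue were uneven: the choroid plexus list summed to 265, 705, 8.73 and 44.6 FPKM, and the list for meninges and vessel wall to 51.5, 42.6, 127 and 46.1 FPKM. In whole tissue, fewer cells of a type and less RNA per cell cannot be told apart.

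Of the 77 genes, 76 were listed in all 4 libraries and 69 had a mean level of at least 1 FPKM, the minimum for the comparisons. The 8 genes below it were Cplx3, Unc13c, Syt10, Stx11, Stx19, Unc13d, Syt15 and Syt8. Syt8 was listed for males only, at 0.10 FPKM in control and 0.01 FPKM in BPA, the latter being the lowest value in the files. Mean levels of the genes tested had a median of 21.1 FPKM, against 13.4 FPKM for all rows with a gene ID in the same test, and 9 of the 77 genes exceeded 100 FPKM. Synaptotagmin-14 and synaptotagmin-16 had no row with a gene ID and appeared as new gene models, which summed to 5.78 to 7.12 FPKM and to 31.9 to 37.3 FPKM across the libraries.

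**Figure D1:**
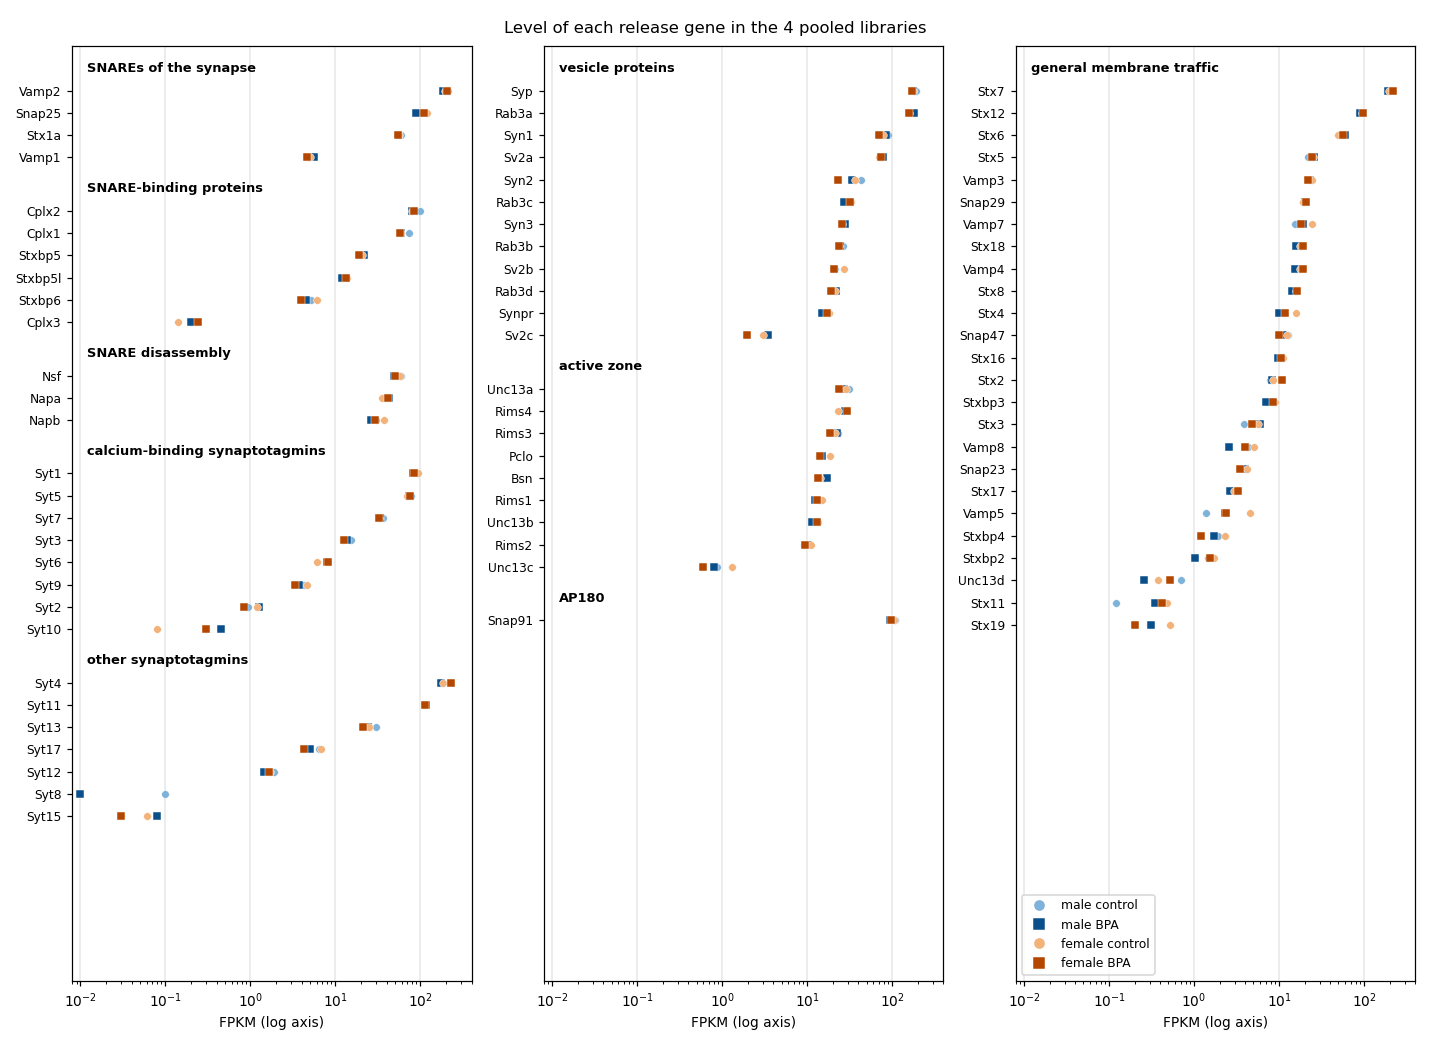
FPKM (log axis) of 75 of the 77 genes, grouped by role, with 1 point per library (circles, control; squares, BPA; blue, male; orange, female). Among the synaptic SNAREs drawn, all but Vamp1 sit above 50 FPKM with their 4 points close together, whereas the points of genes below 1 FPKM are wider apart.

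Among the SNAREs of the synapse, Vamp2 stood highest. Its level was 211, 183, 196 and 205 FPKM. Snap25, its plasma-membrane partner, was at 101, 87.8, 119.8 and 110.4 FPKM. Stx1a, encoding a syntaxin of the plasma membrane, was at 59.9, 54.7, 56.05 and 55.1 FPKM. Vamp1, the synaptobrevin better known from spinal cord and motor nerve terminals, was between 4.62 and 5.58 FPKM.

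The complexins bind the assembled SNARE complex. Cplx2 was at 97.98, 79.7, 79.8 and 85.1 FPKM and Cplx1 at 72.96, 59.1, 59.6 and 56.9 FPKM. In both complexins the male control library was the highest and the other 3 libraries lay close together. Cplx3, known from retina, did not exceed 0.24 FPKM.

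The vesicle proteins were led by Syp, encoding synaptophysin, the classical vesicle marker, at 188, 175, 178 and 169.5 FPKM. Rab3a, the small GTPase that tethers vesicles through RIM, was at 181, 179.7, 159 and 156 FPKM, higher in both male libraries. Sv2a, a vesicle glycoprotein that binds the antiepileptic drug levetiracetam, was at 73.8, 77.5, 69.95 and 74.9 FPKM. Both BPA libraries were thus slightly above both controls for Sv2a and below both for Syp. Sv2b, its paralogue of mature forebrain, was at 21.5, 20.6, 26.9 and 20.9 FPKM, with only the female control library apart.

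Among calcium-binding synaptotagmins Syt1, the sensor for fast release in the forebrain, was at 93.2, 82.8, 94.3 and 83.7 FPKM. Both BPA libraries lay below both controls. The paralogues that can replace Syt1 elsewhere were scarce, with Syt9 between 3.32 and 4.63 FPKM and Syt2, the sensor of brainstem and spinal cord synapses, between 0.83 and 1.25 FPKM. The highest synaptotagmin was not a fast sensor but Syt4, whose product has a substitution that impairs calcium binding and which is induced by activity. Syt4 was at 178, 175, 184 and 229 FPKM. Only the library of BPA females stood apart.

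The active zone genes were expressed at lower levels. Unc13a, encoding the priming factor Munc13-1, had the highest mean among them, at 30.9, 26.96, 28.8 and 23.4 FPKM. The giant scaffolds Bsn and Pclo were at 13.5 to 17.3 and at 13.7 to 18.7 FPKM. Rims1, which links Rab3 to Munc13 and calcium channels, was at 13.8, 12.3, 15.1 and 12.9 FPKM. For Unc13a and Rims1 both BPA libraries lay below both controls, whereas for Bsn and Pclo the BPA library was the higher of the male pair and the lower of the female pair. Snap91, encoding AP180, a clathrin assembly protein that retrieves synaptobrevin, was at 107, 94.8, 104 and 95.6 FPKM.

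The 25 genes of general membrane traffic held the highest mean of all 77. Stx7, a late-endosomal syntaxin, was at 185, 192, 199 and 222 FPKM. Stx12 of recycling endosomes was at 88.6 to 98.6 FPKM and Stx6 of the trans-Golgi network at 49.5 to 59.4 FPKM. The means of the genes next in order ran from 24.3 FPKM for Stx5 of the Golgi to 10.4 FPKM for Stx16 of the trans-Golgi network.

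In most families the composition varied little between libraries. Vamp2 made up 97.5% ± 0.36 of synaptobrevin FPKM (SD, n = 4 libraries), Syt1 94.6% ± 0.48 of the FPKM of the fast sensors Syt1, Syt2 and Syt9, and Syp 91.2% ± 0.61 of that of Syp and Synpr. Cplx2 accounted for 57.9% ± 1.3 of the complexins, Rab3a for 69.0% ± 2.0 of Rab3 and Sv2a for 74.5% ± 3.0 of SV2. Counted by fragments, the order of the complexins turned, with 35.7% for Cplx2 and 64.0% for Cplx1. The SD here is between libraries of different groups and contains any effect of sex and treatment. The SNAP-25 family was held to 74.5% ± 2.6 by Snap25, with Snap29, Snap47 and Snap23 making up the rest.

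**Figure D2:**
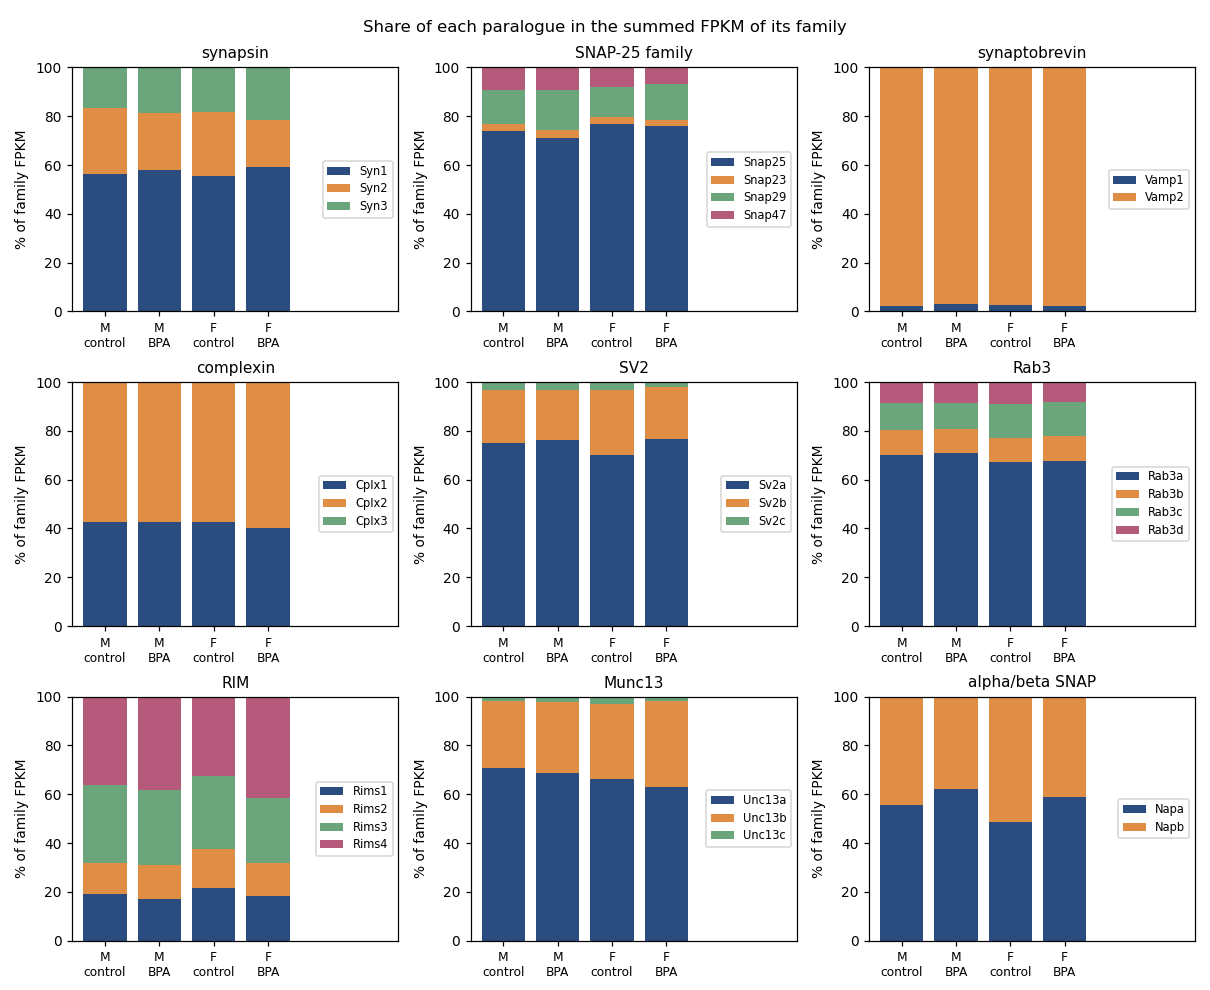
Share of each paralogue in the summed FPKM of its family (y axis, percent), for 9 families and 4 libraries (M, male; F, female). Vamp2 fills 97.0 to 97.8% of its family in every library, while the share of Syn2 among synapsins runs from 19.2 to 26.8% and that of Napa from 48.7 to 62.1%.

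The families whose shares differed most between libraries included the synapsins, the RIM and Munc13 genes and the SNARE adaptors. Syn2 made up 26.8%, 23.2%, 26.2% and 19.2% of synapsin FPKM. Syn3 made up 16.7%, 18.7%, 18.4% and 21.4%, so the BPA library of each pair had less Syn2 and more Syn3 in proportion. The FPKM of Syn3 itself was nearly level. New gene models with the name of Syn3, lower with BPA in each pair, were left out of these shares. Napa made up 55.5%, 62.1%, 48.7% and 58.8% of the FPKM of Napa and Napb, and the shares of both BPA libraries exceeded those of both controls. In the RIM family Rims4 took 37.1% ± 3.8 of the FPKM, from 32.4 to 41.5% across the libraries, Rims3 29.8% ± 2.3 and Rims1 19.0% ± 1.9, where Rims3 and Rims4 are short forms without the Rab3-binding part. Counted by fragments that order turned, with 41.8% for Rims3, 29.2% for Rims1, 22.5% for Rims2 and 6.50% for Rims4. Unc13a made up 70.8%, 68.8%, 66.5% and 63.1% of Munc13 FPKM, lower in females and, within each sex, lower with BPA. With 2 libraries per treatment an exact permutation test cannot go below a two-sided p of 0.333, and no model was fitted to these shares.

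The upstream sequences of 4 of these genes are shown because Syn2 differed from Syn1 in size, and Napa from Napb in direction, between treatments. All 77 symbols were found in the RefSeq gene table for the rat assembly GRCr8, and 62 genes had a promoter entry. The sequences are the 250 bases upstream of the annotated start, from 5′ to 3′ on the strand of the gene. Syn2 lies at chr4:149858669-149858918 (+), Syn1 at chrX:3725495-3725744 (+), Napa at chr1:85915185-85915434 (+) and Napb at chr3:156632419-156632668 (-). Capitals mark matches to the GC box (GGGCGG), the cAMP response element (TGACGTCA) or the E-box (CACGTG), searched on both strands.
Syn2: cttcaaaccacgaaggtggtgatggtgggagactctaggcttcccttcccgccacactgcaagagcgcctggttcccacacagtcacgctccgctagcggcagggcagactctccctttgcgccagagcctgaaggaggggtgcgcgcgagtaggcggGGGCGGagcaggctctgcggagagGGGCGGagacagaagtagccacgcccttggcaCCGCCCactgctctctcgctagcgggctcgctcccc
Syn1: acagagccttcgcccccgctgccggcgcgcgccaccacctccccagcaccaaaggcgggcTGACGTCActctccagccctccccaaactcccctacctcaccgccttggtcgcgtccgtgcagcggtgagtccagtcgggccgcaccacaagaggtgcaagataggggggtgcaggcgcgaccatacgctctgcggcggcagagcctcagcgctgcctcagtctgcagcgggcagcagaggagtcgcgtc
Napa: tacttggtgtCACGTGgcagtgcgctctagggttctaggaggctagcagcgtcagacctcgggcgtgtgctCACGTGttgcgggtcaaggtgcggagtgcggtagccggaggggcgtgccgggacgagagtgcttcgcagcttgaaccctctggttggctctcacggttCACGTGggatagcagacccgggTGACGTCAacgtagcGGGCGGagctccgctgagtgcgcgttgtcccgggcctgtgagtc
Napb: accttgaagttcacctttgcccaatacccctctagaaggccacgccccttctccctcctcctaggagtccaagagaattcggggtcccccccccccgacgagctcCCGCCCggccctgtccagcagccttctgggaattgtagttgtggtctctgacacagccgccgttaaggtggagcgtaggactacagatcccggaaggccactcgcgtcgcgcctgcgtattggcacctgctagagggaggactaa
Syn2 held 3 GC boxes, and Syn1 held no GC box and 1 cAMP response element. Napa held 1 GC box, 1 cAMP response element and 3 E-boxes, and Napb held 1 GC box. No match overlapped another in these 4 sequences. Of 27457 rat promoters of the same length, 32.4% held a GC box, 1.7% the cAMP response element and 5.79% the E-box, against 66.1%, 4.84% and 11.3% of the 62 promoters of release genes. The consensus estrogen response element was present in 0.0219% of all promoters and in 0 of the 62, and the TATA box (TATAAA) in 13.1% and 4.84%. Such matches describe letters in this window and were not linked to binding.

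The effect of BPA was first tested over both sexes, with 2 BPA libraries against 2 control libraries in limma on log2(FPKM + 1). None of the 69 release genes passed a Benjamini-Hochberg adjusted p of 0.05, and of all 13542 rows 0% did. The lowest adjusted p of a release gene was 0.973, and the lowest of any row was 0.0656 by limma. At an unadjusted p of 0.05, 2 of the 69 genes were lower with BPA, where 3.11% of all rows were, and 0 were higher, where 1.6% of all rows were. The 2 genes, Syn2 and Syt17, are 2.9% of those tested, close to the background. With sex as a covariate, 0.0148% of all rows passed and again 0 release genes, with a lowest adjusted p of 0.296, for Syn2 in limma. At an unadjusted p of 0.05 that fit held 8 genes lower with BPA (11.6%), against 5.38% of all rows, and 1 higher (1.45%), against 3.6%. The 8 were Napb, Nsf, Stx4, Syn2, Syt1, Syt13, Syt17 and Unc13a, and the 1 was Napa. The standard error of the combined log2 fold change had a median of 0.13 over the release genes and reached 0.39 for Vamp5.

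The release genes were also described as a group. Their median combined log2 fold change was -0.07, beside -0.02 for all rows with a gene ID. In males the median was -0.06 and in females -0.07, beside medians of -0.0041 and -0.04 for all rows with a gene ID. Of the 69 genes, 32 (46.4%) were lower with BPA in both sexes, against 32.6% of rows with a gene ID, and 9 (13%) were higher in both, against 24.2%. When each library was rescaled by median ratios, 28 genes (40.6%) were lower and 12 (17.4%) higher in both sexes, against 28.3% and 28.1%, and the female median was -0.02. No test of the list was made, and these shares describe 4 libraries. Among the marker lists, 8 genes of radial glia and astrocytes had a combined median of -0.11 (6 lower in both sexes). It was -0.21 for 4 genes of cycling cells (2 lower) and -0.74 for 6 of meninges and vessel wall (4 lower). Lists of neurons differed in sign. The 8 neuronal markers had a median of 0.06 (1 lower and 4 higher in both). The 8 listed markers of hippocampal excitatory neurons had one of -0.15 (3 lower and 3 higher). The 8 interneuron markers had one of -0.06 (4 lower and 1 higher). The part of these lists in the medians and counts of the release genes was not tested.

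Both BPA libraries were below both controls for 20 of the 69 genes (29%), where 20.2% of the rows with a gene ID showed that order. Both BPA libraries were above both controls for 4 genes (5.8%), where 13.3% of rows did. After median-ratio rescaling the counts were 18 (26.1%, against 17.4% of rows) and 7 (10.1%, against 16.5%). The 20 genes were Syt1, Syt9, Syt12, Syt13, Syt17, Stx1a, Stxbp4, Stxbp6, Snap47, Vamp8, Cplx1, Nsf, Napb, Syp, Synpr, Sv2b, Syn2, Rims1, Unc13a and Snap91. The 4 genes were Napa, Rims4, Snap29 and Sv2a. The 47 genes of synaptic roles alone had a combined median of -0.08, with 25 (53.2%) lower and 4 (8.51%) higher in both sexes. The 22 genes of general membrane traffic had a median of -0.05, with 7 (31.8%) lower and 5 (22.7%) higher in both. Of rows with a gene ID, 32.6% were lower and 24.2% higher in both, close to the shares of the membrane traffic genes.

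Syn2, encoding synapsin II, which ties vesicles to the reserve pool, had one of the largest combined log2 fold changes among the 69 genes. Its level was 42.5, 34, 36.96 and 22.8 FPKM. Both BPA libraries lay below both controls, with log2 fold changes of -0.31 (males) and -0.68 (females). The BPA-to-control ratio was 0.799 in males (95% counting interval 0.749 to 0.853) and 0.616 in females (0.571 to 0.664), where the intervals cover counting error only. The combined log2 fold change was -0.50 (SE 0.19), with an unadjusted p of 0.0371 and an adjusted p of 0.973 in limma. The Syn2 value ran from -0.77 without the male BPA library to -0.22 without the female BPA library. Its paralogue Syn1 was at 89.5, 85.4, 78.2 and 70.1 FPKM and Syn3 at 26.5, 27.5, 25.9 and 25.4 FPKM. Syn1 was lower in the BPA library of each pair, but the male BPA value exceeded the female control value, and the Syn3 values were nearly level. A further 3 new gene models carried the name of Syn3 and summed to 23.6, 19.7, 15.8 and 12.2 FPKM.

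**Figure D3:**
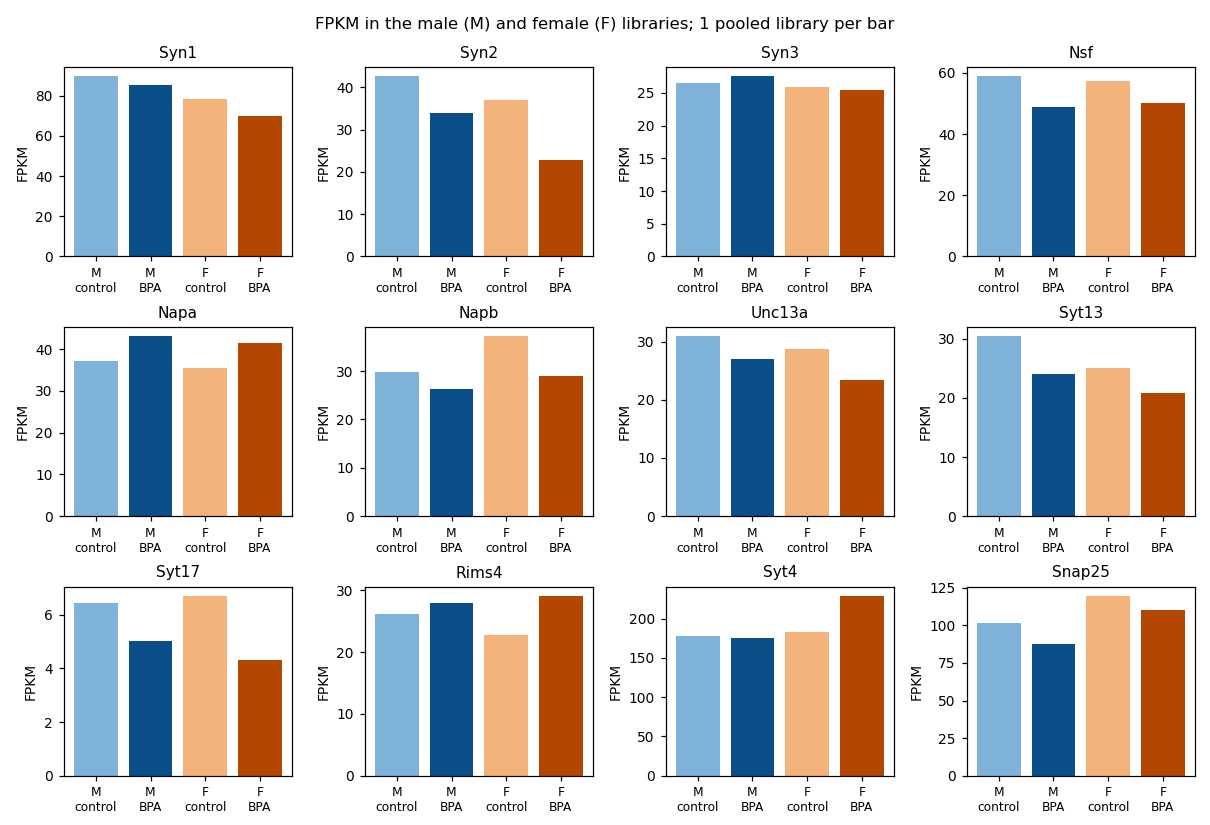
FPKM (y axis, from 0) of 12 release genes in the male (M) and female (F) control and BPA libraries, 1 pooled library per bar and no error bars because there were no replicate libraries. The Syn2 bars stand at 42.5 and 34 FPKM in males and at 36.96 and 22.8 FPKM in females, Napa is higher and Nsf lower in both BPA bars, and Syt4 stands apart only in female BPA.

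The genes that take SNARE complexes apart differed in direction. Nsf, the ATPase itself, was at 58.8, 48.9, 57.4 and 50.05 FPKM. Napb, the brain-enriched adaptor, was at 29.8, 26.3, 37.2 and 29.1 FPKM. Napa, the adaptor found in all tissues, was at 37.2, 43.2, 35.4 and 41.5 FPKM. Both BPA libraries were thus below both controls for Nsf and Napb and above both for Napa. The counting intervals of the ratio excluded 1 in both sexes for Nsf (0.776 to 0.892 in males and 0.813 to 0.935 in females) and for Napa (1.02 to 1.31 and 1.03 to 1.33), and for Napb in females only. Combined log2 fold changes were -0.23 (SE 0.10) for Nsf, 0.22 (SE 0.10) for Napa and -0.26 (SE 0.14) for Napb, each with an adjusted p of 0.973 in limma. The value of Napb ran from -0.42 without the male control library to -0.10 without the female control library.

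Other genes with the same direction in both sexes were found among synaptotagmins without fast-sensor function. Syt13, an atypical synaptotagmin that does not bind calcium, was at 30.5 and 24.1 FPKM in the male pair and at 25.1 and 20.9 FPKM in the female pair. Syt17 was at 6.42 and 5.01 FPKM in males and at 6.71 and 4.31 FPKM in females. Their combined log2 fold changes were -0.29 (SE 0.14) and -0.42 (SE 0.16), and the unadjusted p of Syt17 was 0.0330 in limma. The value of Syt13 ran from -0.43 without the female control library to -0.15 without the male control library and -0.19 without female BPA. Vamp8, an endosomal and granule SNARE, was at 4.30, 2.57, 5.15 and 4.01 FPKM, which stands for 16 to 32 fragments, and both of its counting intervals include 1. Unc13a had ratios of 0.871 in males (0.819 to 0.928) and 0.813 in females (0.761 to 0.868). Syt1 had nearly the same ratio in both sexes, 0.888 and 0.887. Both of these intervals for Syt1 lie below 1, at 0.825 to 0.957 and 0.824 to 0.955.

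In the other direction, the genes higher with BPA in both sexes were fewer and their differences smaller. Rims4, a short RIM protein, was at 26.2 and 27.9 FPKM in males and at 22.8 and 29.1 FPKM in females. Its log2 fold changes were 0.09 and 0.34, and its gene model of 810 bases collected only 148 to 188 fragments. Stx6 was at 56.3 and 59.4 FPKM in males and at 49.5 and 56.02 FPKM in females. Snap29, a SNARE of autophagosomes, was at 19.2, 20.3, 19.4 and 21.03 FPKM, with counting intervals that include 1 in both sexes. The log2 fold changes of Sv2a were 0.07 (males) and 0.10 (females).

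In the male pair alone, no release gene reached an absolute log2 fold change of 1, a size reached by 0.267% of rows with a gene ID. At a threshold of 0.3 (a ratio of about 1.23), 5 of 69 genes (7.25%) were lower with BPA, against 7.2% of rows, and 2 (2.9%) were higher, against 6.16%. The 5 were Cplx1, Syn2, Syt13, Syt17 and Vamp8, and the 2 were Stx3 and Vamp5. The larger counts of fragments of abundant genes make smaller differences visible. By the counting interval of the ratio, 16 genes (23.2%) were below 1 in males, against 12.6% of rows, and 6 (8.7%) were above it, against 12.8%. The 16 held much of the fusion core, with Vamp2 (0.866, interval 0.828 to 0.907), Snap25 (0.865, 0.809 to 0.925), Stx1a (0.912, 0.837 to 0.995), Cplx1 (0.81, 0.748 to 0.876) and Cplx2 (0.813, 0.729 to 0.907). Such intervals leave out the differences between animals, which a pool of 3 hippocampi cannot show.

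In the female pair, likewise, no release gene reached an absolute log2 fold change of 1, where 0.645% of rows did. At 0.3, 12 genes (17.4%) were lower with BPA, against 14.9% of rows, and 4 (5.8%) were higher, against 5.68%. Both shares lay close to the background. The 12 were Napb, Pclo, Stx4, Stxbp4, Stxbp6, Sv2b, Sv2c, Syn2, Syt9, Syt17, Vamp5 and Vamp7, and the 4 were Rims4, Stx2, Syt4 and Syt6. By the counting interval 23 genes (33.3%) were below a ratio of 1, against 21.5% of rows, and 9 (13%) above it, against 14.1%. Stxbp4, a syntaxin-4 binding protein of glucose transporter traffic, was at 1.91 and 1.72 FPKM in the male pair and at 2.29 and 1.20 FPKM in the female pair. Syt4 had a ratio of 1.25 in females (1.21 to 1.29) and of 0.985 in males (0.95 to 1.02), and the difference between the sexes was not tested.

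Only 2 genes, Syn2 and Syt17, were lower by at least 0.3 in both sexes (2.9%), where 2.63% of rows were. None was higher by that amount in both, where 0.792% of rows were. These shares were near the background.

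**Figure D4:**
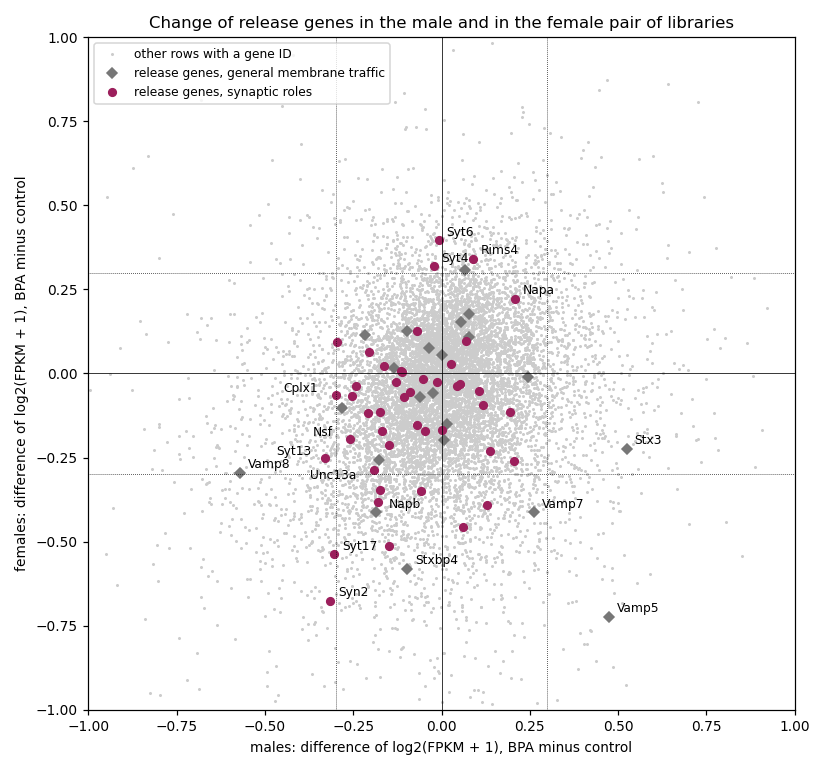
Difference of log2(FPKM + 1), BPA minus control, in males (x axis) and females (y axis) for 67 of the 69 release genes tested, over the other rows with a gene ID in grey; rows beyond 1 in either direction lie outside the axes and dotted lines mark 0.3. Syn2 and Syt17 lie past -0.3 on both axes, Napa lies near 0.2 on both, and Vamp5, Vamp7 and Stx3 lie where the BPA library is the higher of the male pair and the lower of the female pair.

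Of the 69 genes, 27 (39.1%) had differences of opposite sign in the sexes, against 42.5% of rows with a gene ID. BPA was the higher of the male pair and the lower of the female pair in 15 of them (21.7%), against 24.2% of rows, and the reverse held in 12 (17.4%), against 18.3%. Vamp2, Snap25, Cplx1 and Cplx2 differed less in the female pair than in the male pair, but without a test of that difference. Other core release genes did not. The log2 fold change of Syt1 was -0.17 in both pairs, and that of Unc13a -0.19 in males and -0.29 in females. For the male and then the female pair, log2 fold changes were -0.21 and 0.06 for Vamp2, -0.21 and -0.12 for Snap25, -0.30 and -0.06 for Cplx1, and -0.30 and 0.09 for Cplx2. For both complexins and Vamp2 the male control library was the highest of the 4. The scaffold gene Pclo showed the reverse. It was at 13.7 and 15.1 FPKM in males and at 18.7 and 14 FPKM in females, where the female control library alone was high, and Sv2b had that form as well. Bsn was at 16, 17.3, 14 and 13.5 FPKM.

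Genes of general membrane traffic with the highest level in the female control library included Vamp5, Vamp7, Vamp8 and Stx4. That trait was not particular to them. It was shared by Snap23, Stx16 and Vamp3, and by synaptic genes such as Snap25, Pclo, Rims1, Sv2b and Napb. Vamp5, a SNARE of muscle and endothelium, was at 1.39, 2.32, 4.55 and 2.36 FPKM, and Vamp7, a SNARE of late endosomes and growing neurites, at 15.6, 18.9, 24.4 and 18.1 FPKM. Stx4 was at 11.6, 10.1, 15.9 and 11.7 FPKM. The meninges and vessel wall markers were also highest in that library, at 127 FPKM against 42.6 to 51.5 FPKM in the others, and their part in these values was not tested. Stx3, a syntaxin of apical membranes and ribbon synapses, was instead lowest in male control, at 3.89, 6.03, 5.74 and 4.77 FPKM.

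The other factor of the design, sex, was compared over both treatments, with 2 female against 2 male libraries. By limma, 0 of the 69 release genes passed an adjusted p of 0.05, where 0.00738% of all rows passed, and the lowest adjusted p was 0.390, for Snap25. At an unadjusted p of 0.05, 5 genes (7.25%) differed, against 10.6% of all rows. Snap25 was higher in females by 0.28 (SE 0.09) on the log2 scale and Rab3c by 0.22 (SE 0.09), and the female-minus-male difference was -0.20 (SE 0.07) for Rab3a, -0.24 (SE 0.08) for Syn1 and -0.26 (SE 0.11) for Bsn. For these 5 genes the values of the male and the female libraries did not overlap. They were picked by this same comparison, so the separation is no further result. The largest female-minus-male differences were those of Vamp5 (0.62, SE 0.31), Syn2 (-0.38, SE 0.22) and Vamp8 (0.35, SE 0.24), none with an unadjusted p under 0.05 in limma. Rab3a and Rab3c, paralogues on the same vesicles, thus differed in opposite directions between the sexes at the unadjusted level only.

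Genes of the presynaptic terminal outside these families were examined from a separate list of 58, of which 57 were found and 54 tested. None passed the adjusted p in limma, and 2 were lower with BPA at an unadjusted p of 0.05, Syngr3 and Doc2b, where 3.11% of all rows were. Syngr3, a vesicle protein related to synaptophysin, was at 42.7, 36.4, 41.95 and 30.8 FPKM, and Doc2b, a calcium sensor for slower forms of release, at 40.5, 33.01, 39.1 and 30.3 FPKM. Both BPA libraries of each were below both controls. The 54 genes had a combined median log2 fold change of -0.07, the value of the release genes, with 27 (50%) lower and 9 (16.7%) higher in both sexes, against 32.6% and 24.2% of rows with a gene ID. By group, the median was -0.11 for 14 other vesicle proteins, -0.08 for 16 other active zone genes, -0.06 for 8 genes of transmitter filling and -0.01 for 16 genes of endocytosis. Slc17a7, the vesicular glutamate transporter of hippocampal excitatory neurons, was at 138, 114, 117 and 108 FPKM. Slc32a1, its counterpart for GABA, was at 31.4, 28.02, 20.2 and 19.1 FPKM, higher in both male libraries. The interneuron markers, a list of 8 that holds Slc32a1, summed to 255, 250, 221 and 201 FPKM, and their part in the Slc32a1 values was not tested.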

How the data were processed

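RNA was sequenced from the hippocampus of postnatal day 1 Wistar rats in 4 libraries, each a pool of 3 hippocampi. The authors deposited FPKM, 1 value per gene and library to 2 decimals with 0.01 as the lowest. The submitters' processing notes name HISAT 0.1.6, Bowtie2 2.2.5, RSEM and the build rn6, without the role of each. The sources used here do not say whether strand was used. Tests for normalized values were made, since the files hold no read counts.

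The 4 files were joined by row name, and the release genes were chosen by symbol among rows with a gene ID. Rows with a mean of at least 1 FPKM were compared on log2(FPKM + 1), a scale that shrinks differences of low genes. Both sexes together, and the sexes, were tested by limma (version 3.58.1, R 4.3.3, trended eBayes, no covariates, Benjamini-Hochberg over 13542 rows). The p-values of this fit measure the spread between pooled libraries of different sex or treatment. Within a sex there was 1 library per treatment and no test. Fragments were estimated as the value times length times the depth at which 96.3 to 98.9% of low values came within 0.15 of whole fragments (30% if spread evenly). Intervals are 95% and cover counting error only. Promoters are RefSeq entries of GRCr8, a later build than that of the files, and no coordinate of the files was used. Tables and figures were made in Python 3.11.15 (pandas 2.3.3, matplotlib 3.10.9, numpy 2.4.6, scipy 1.17.1).

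The genes named were the core release genes, the highest of each role, the 5 largest rises and 5 largest falls shared by both sexes, the 3 largest opposite changes and the 3 largest differences in males, in females and between the sexes, and Syt8, listed for 1 sex. Values of 2 genes are not reported here, though the counts include them. Other genes are named where a count, a family or a marker list holds them and were chosen after their values were seen. The release genes and all lists were chosen with earlier results of these data known. Alternatives were quantile and median-ratio scaling, omission of each library, a covariate for sex, a pseudocount of 0.1, a minimum mean of 5 or none, sums with new gene models, an unadjusted p and shares by fragments. The restriction to means of at least 20 FPKM, the counting intervals and the rescaled counts were added after seeing the data.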

Additional observations from a re-analysis of the deposited data

Results flagged for a closer look

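The difference between BPA and control had opposite signs in the male and the female pair in 27 of the 69 release genes (39.1%), against 42.5% of rows with a gene ID. The 3 with the largest female-minus-male difference were Vamp5, Vamp7 and Stx3. With 1 library per group the difference was not tested. For Vamp5 the log2 fold change with BPA was 0.47 in males and -0.72 in females, a female-minus-male difference of -1.20, on 18 to 60 fragments per library. For Vamp7 the changes were 0.26 and -0.41, a difference of -0.68. For Stx3 they were 0.52 and -0.22, a difference of -0.75. In Vamp5 and Vamp7 the female control library was the highest, and in Stx3 the male control library was the lowest.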

How the results depend on the processing

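No group had a replicate library, so differences between animals were not measured, and depth left genes below 1 FPKM with few fragments. No row passed the adjusted p in limma, but 2 rows did with sex as a covariate, and 0 to 3 did when a library was left out (1 without male BPA and 3 without female control). At an unadjusted p of 0.05 there were 637 rows and 2 release genes. The number of release genes with both BPA libraries above both controls was 7 instead of 4 after median-ratio rescaling. The median combined log2 fold change of the release genes stayed between -0.08 and -0.05 under the alternatives tried. Counted by fragments instead of per length, family shares were 54.0% for Syn1, 97.1% for Vamp2, 35.7% for Cplx2, 69.8% for Sv2a, 65.7% for Rab3a, 6.50% for Rims4, 70.9% for Unc13a, 68.4% for Snap25 and 68.3% for Napa, because gene models of different length weigh differently.

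Of 360 values of 33 named genes under alternatives, 15 changed sign, 14 of them when a library was left out, in 12 genes. With libraries left out, the combined log2 fold change ran from -0.33 to 0.0013 for Snap25, from -0.073 to 0.15 for Vamp1, from -0.15 to 0.012 for Vamp2, from -0.25 to 0.045 for Cplx2, from -0.25 to 0.029 for Syn1, from -0.12 to 0.084 for Rab3a, from -0.14 to 0.20 for Bsn, from -0.34 to 0.078 for Pclo, from -0.045 to 0.34 for Syt4, from -0.73 to 0.48 for Vamp5, from -0.38 to 0.23 for Vamp7 and from -0.082 to 0.38 for Stx3. Rab3a was at 0.0052 with median-ratio scaling. The cause was not tested. With a pseudocount of 0.1, Vamp8 (-0.54) and Stxbp4 (-0.51) were as large in size as Syn2 (-0.51). Syn2 ran from -0.77 to -0.22, lowest without male BPA and nearest 0 without female BPA, and Napa from 0.18 to 0.25. Unc13a ran from -0.34 (without male BPA) to -0.14 (without female BPA), Vamp8 from -0.68 (without female BPA) to -0.19 (without male BPA) and Rims4 from 0.12 (without female control) to 0.31 (without male control). With sex as a covariate, which blocks by sex, 9 release genes had an unadjusted p under 0.05 instead of 2, and the lowest adjusted p was 0.296 (Syn2). Replicate numbers pair nothing, since every group has replicate 1 only.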

Other observations

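Among other presynaptic genes, some with an unadjusted p above 0.05 in limma had both BPA libraries below both controls. Of all rows with a gene ID, 20.2% showed that order and 13.3% the reverse. The calcium channel gene Cacna1b was at 16.3, 14.9, 17.99 and 11.8 FPKM (control males, BPA males, control females, BPA females), and Ppfia4, encoding a liprin of the active zone, at 15.2, 12.1, 13.4 and 10.4 FPKM. Dnm1, the dynamin of vesicle retrieval, was at 75.3, 62.6, 65.8 and 56.5 FPKM, with both BPA libraries below both controls. Lin7b, an active zone scaffold gene, was at 12.01 and 8.47 FPKM in males and at 7.30 and 9.42 FPKM in females, with opposite directions in the sexes. Clta, a clathrin light chain gene, was low only in female control, at 122 FPKM against 160.2 to 170.0 FPKM in the other libraries. These genes were chosen after their values were seen.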
